A study of Drosophila melanogaster with 21 samples.

Results

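Heads of Crtc knockout flies that had been fasted were compared with heads of fasted control flies, across all genes of the authors' deposited table of that comparison. The comparison holds 4 of the series' 21 libraries, 2 of fasted CRTCko heads and 2 of fasted wt heads. The knockout flies are given as crtc ko and the control flies as w1118, a laboratory stock named for a mutation of the eye-colour gene white. Adult heads were taken from flies 3 to 5 days old after 16 hours of fasting in both genotypes, and polyadenylated RNA was sequenced. Sex, the kind of Crtc allele and the stock in which it was made are not given in the labels. The other head libraries used here for setting the fasted contrast beside a second state are 3 of fed CRTCko heads and 3 of fed wt heads, of the same age and genotypes. The labels list the 4 fasted libraries in 2 sets with 1 of each genotype per set, and the third fed library of each genotype in a further set that has no fasted library. The labels do not say if replicates were separate groups of flies, so the p-values cover the spread of these libraries only, and that spread may be technical. The table's name numbers its libraries otherwise than the labels do, and membership was taken from the labels.

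Crtc is the fly's CREB-regulated transcription coactivator. In its phosphorylated form it is held in the cytoplasm by salt-inducible kinases, and when dephosphorylated it enters the nucleus and acts with CREB on genes that respond to cyclic AMP, to neuronal activity and to energy state. Per the series title, the study concerned resistance to starvation through one-carbon metabolism and insulin. A fly head holds brain and eye together with fat body and muscle, so genes of all these tissues are measured in it. One-carbon metabolism moves single carbon units on folate and methionine for the making of purines and for methylation, and in flies several of its enzymes are fat body genes.

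The table gives 1 base mean, 1 log2 fold change and 1 standard error per gene and no value per library, so no sample's own value can be shown. Each ± below is the authors' standard error. Base means are averages of normalised counts over the libraries of a table. A level for each genotype was worked back from the base mean and the fold and is called an implied level. The deposited folds are shrunken towards 0, so an implied level understates the gap, above all where 1 genotype is nearly without reads. Of 17559 genes listed in the authors' deposited table, 13181 had a fold and 9917 an adjusted p, the smallest base mean among these tested genes being 2.77. A gene is called where the authors' adjusted p (DESeq2) is under 0.05.

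Crtc itself served as a check on the labelled genotypes. Crtc (FBgn0036746, a protein-coding gene on the minus strand of chromosome 3L, 17659818 to 17669234) had the most negative fold of all tested genes, -4.88 ± 0.32, in the authors' deposited table (adjusted p = 5.32e-50). Its base mean was 0.360 over the knockout libraries and 339.7 over the control libraries in the authors' deposited tables of fasting in each genotype, which were normalised separately. The knockout libraries thus held next to no Crtc transcript. The eye pigment transporter gene w (chromosome X, 2790599 to 2796466) was lower in CRTCko, at -2.31 ± 0.34 in the authors' deposited table (adjusted p = 8.16e-10), although the control stock is the one named for a white mutation. Its base mean was 4.94 over the knockout libraries and 80.1 over the control ones in the authors' deposited fasting tables. The stocks thus differed at w as well, and what the loss of Crtc and other stock differences each contribute to the folds cannot be told apart.

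In fasted heads 535 of the 9917 tested genes, 5.39%, were called in the authors' deposited table. CRTCko heads had 340 genes higher (3.43% of those tested) and 195 lower (1.97%). An absolute log2 fold of at least 1 was reached by 286 of the called genes, 169 higher and 117 lower. The median fold of all tested genes was -0.02 in the authors' deposited table, and the median absolute fold of the called genes was 1.05. Called genes had a median base mean of 253.6 normalised counts, against 122.9 for all tested genes in the authors' deposited table. All calls rest on the normal distribution of the authors' test: with a t distribution of 2 degrees of freedom, as 4 libraries in 2 groups leave, 0 genes passed and 242 lay at an unadjusted p under 0.05.

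**Figure D1:**
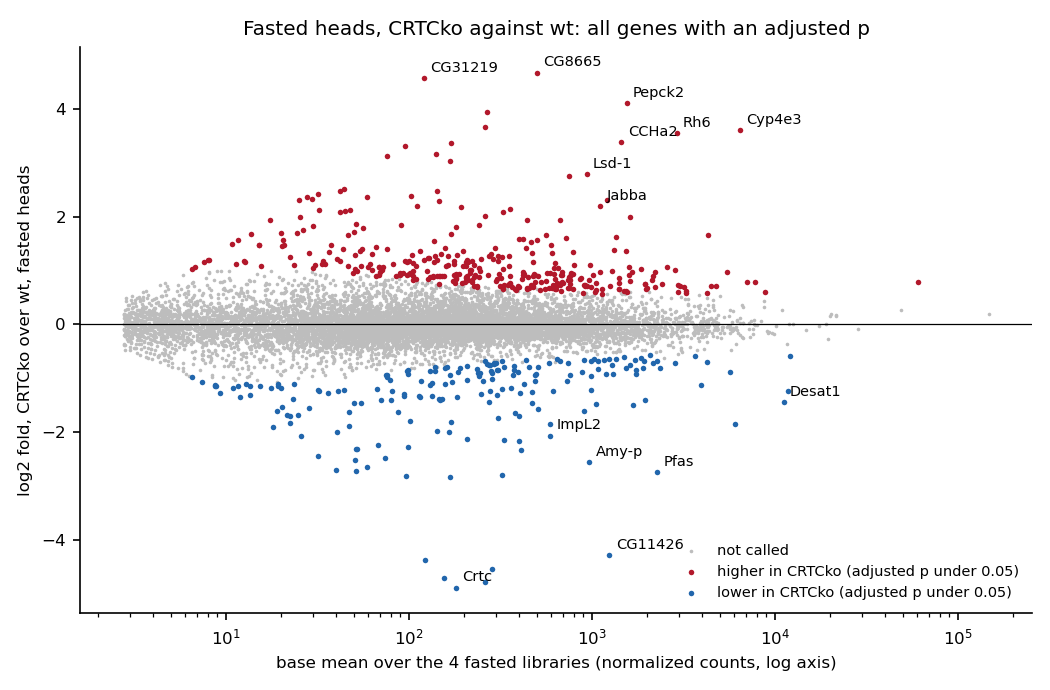
Each point is 1 of 9917 tested genes, with its base mean over the 4 fasted libraries (normalised counts, log axis) against its log2 fold, CRTCko over wt, from the authors' deposited table. Red points are the 340 genes called higher in CRTCko and blue points the 195 called lower, and the called folds run from -4.88 for Crtc to 4.67 for CG8665.

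The highest fold belonged to CG8665, annotated as a 10-formyltetrahydrofolate dehydrogenase, the enzyme that takes formyl units out of the folate pool as carbon dioxide. CG8665 (chromosome 2L, 21371227 to 21377995) stood at 4.67 ± 0.24 in the authors' deposited table (adjusted p = 1.14e-78), with implied levels of 964 normalised counts in CRTCko and 37.8 in wt. Pepck2 (chromosome 2R, 18527430 to 18535749), a phosphoenolpyruvate carboxykinase of the gluconeogenic step, followed at 4.11 ± 0.20 in the authors' deposited table (adjusted p = 6.02e-93). Its implied levels were 2937 normalised counts in CRTCko and 170 in wt, from the authors' deposited table. Both enzymes act in central metabolism, and both folds were far above their standard errors. CCHa2 (chromosome 3R, 13389059 to 13395197), a peptide hormone that acts on the insulin-producing cells, was higher by 3.38 ± 0.20 in the authors' deposited table (adjusted p = 1.41e-63). Cyp4e3, a cytochrome P450 gene, was higher by 3.60 ± 0.18 in the authors' deposited table, with implied levels of 11910 normalised counts in CRTCko and 980 in wt. Rh6, the opsin of a subset of R8 photoreceptors, was higher by 3.55 ± 0.20 in the authors' deposited table (adjusted p = 1.55e-66). Lsd-1, the fly's perilipin of the lipid droplet surface, was higher by 2.79 ± 0.23 in the authors' deposited table (adjusted p = 1.8e-32). Exons of Lsd-1 overlap those of CG10214, and reads there may count for either gene. The remaining genes among the 15 with the largest positive folds were CG31219 at 4.57, CG10962 at 3.93, CG6912 at 3.67, Srg3 at 3.38, asRNA:CR45600 at 3.31, CG31205 at 3.16, CG8012 at 3.12, CG43402 at 3.03 and hzg at 2.76 in the authors' deposited table. The antisense gene asRNA:CR45600 overlaps CG6912, and the sources used here do not say whether reads were counted by strand, so their reads cannot be told apart.

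Below Crtc, the lowest folds were those of CG9150 at -4.78 ± 0.30, the odorant-binding protein gene Obp46a at -4.70 ± 0.32 and Tektin-C, a microtubule protein of cilia and flagella, at -4.54 ± 0.29 in the authors' deposited table. CG42876 stood at -4.36 ± 0.33 in the authors' deposited table. CG11426 (chromosome 3L, 22470556 to 22473509), one of the wunen-like lipid phosphate phosphatases, was lower at -4.29 ± 0.21 in the authors' deposited table, with implied levels of 122 normalised counts in CRTCko and 2378 in wt (adjusted p = 2.48e-86). Its neighbour and relative CG11425 was lower at -1.80 ± 0.26 in the authors' deposited table (adjusted p = 6.3e-10). The other 6 tested wunen-like genes were not called. Pfas (chromosome 2L, 6041181 to 6046050), an enzyme of de novo purine synthesis, was lower at -2.74 ± 0.19 in the authors' deposited table (adjusted p = 7.04e-45). Its implied levels were 592 normalised counts in CRTCko and 3960 in wt, from the authors' deposited table. The others among the 15 with the largest negative folds were lncRNA:CR32368 at -2.84, the neprilysin-like peptidase gene Nepl4 at -2.82, CG4757 at -2.80, CG7763 at -2.73, lncRNA:CR45973 at -2.70, CG34138 at -2.64, the amylase gene Amy-p at -2.55 and the serine protease homologue gene SPH93 at -2.52 in the authors' deposited table.

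Beside Crtc, 5 genes had a base mean under 1 in 1 genotype and of at least 50 in the other, limits chosen after the values were seen. Obp46a had a base mean of 0.720 over the knockout libraries and 256.9 over the control libraries in the authors' deposited fasting tables. CG42876 had 0.360 over the knockout and 127.6 over the control libraries, and lncRNA:CR45973 had 0.859 over the knockout and 84.4 over the control libraries, in the same authors' deposited tables. For edin, an immune-induced gene, the base means were 0.545 over the knockout and 64.0 over the control libraries, fed ones included, in the authors' deposited fasting tables, with a fasted fold of -1.13 ± 0.34. CG31219 went the other way, with 211.1 over the knockout libraries and 0.228 over the control libraries in the authors' deposited fasting tables, and its exons overlap CG6184. Apart from edin, these genes were called in the same direction in fed heads too. The base means that picked them cover fed and fasted libraries alike, so this agreement is not a separate result.

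The same contrast was read in fed heads, whose table shares no library with the fasted one. There 489 of 10285 tested genes were called in the authors' deposited table (4.75%), 233 higher in CRTCko (2.27%) and 256 lower (2.49%). Among 9832 genes tested in both states, 337 were called higher in fasted heads and 232 in fed heads, and 118 were called higher in both. Those 118 were 35.0% of the fasted and 50.9% of the fed list, where 2.36% of all these genes were called higher in fed heads. Of 193 genes called lower in fasted heads and 256 in fed heads, 124 were called lower in both, 64.2% of the fasted and 48.4% of the fed list, where 2.60% of all were called lower in fed heads. Most of the fasted calls kept their direction: 478 of 530 (90.2%) had the same sign of fold in fed heads, against 6597 of all 9832 genes (67.1%).

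Many of the strongest folds stood in both states. In fed heads CG8665 was at 3.34, Pepck2 at 2.97, CG31219 at 4.30, Rh6 at 3.85, asRNA:CR45600 at 3.62 and CG6912 at 3.05 in the authors' deposited table. The lowest genes repeated as well, with CG9150 at -4.16, Obp46a at -4.08, Tektin-C at -4.33 and CG11426 at -3.89 in fed heads in the authors' deposited table. Other strong fasted folds had no counterpart in fed heads. There Lsd-1 was at -0.07, CG43402 at 0.16, Cyp4e3 at 0.43, CG10962 at 0.73 and Pfas at -0.15, none of them called in the authors' deposited table.

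**Figure D2:**
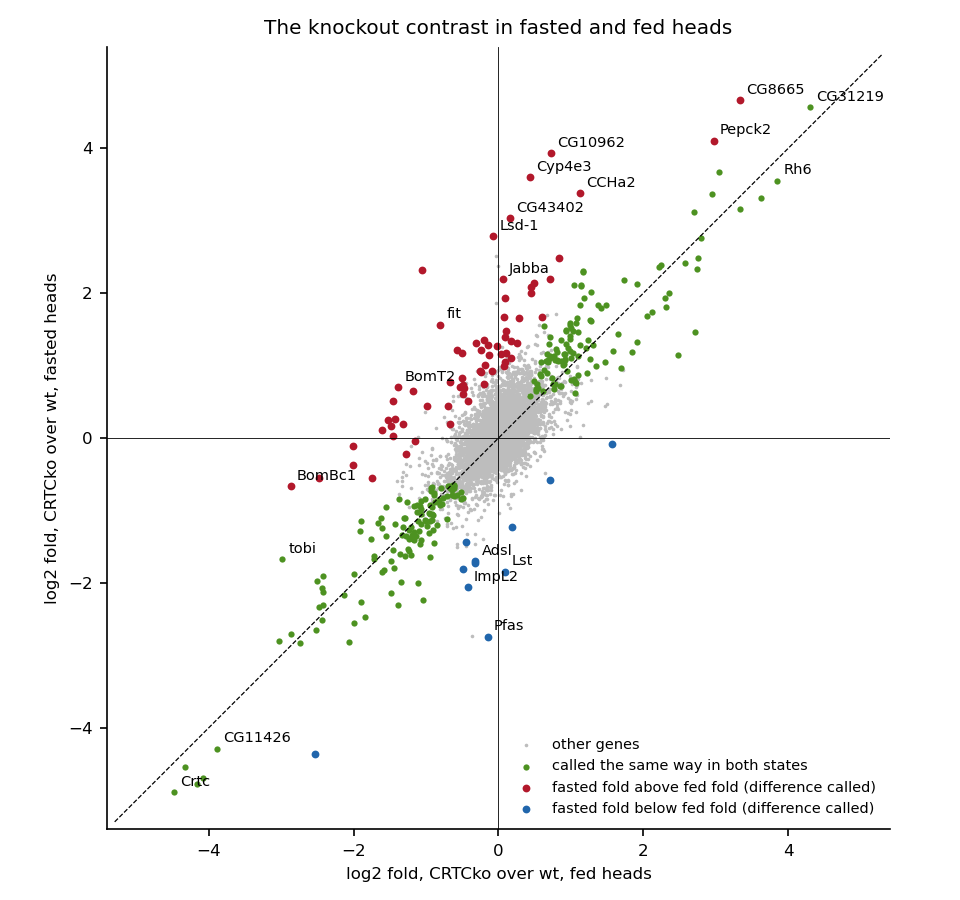
Each point is a gene tested in both states, with its log2 fold, CRTCko over wt, in fed heads across and in fasted heads upwards, both from the authors' deposited tables, and the dashed line marks equal folds. Green points are called in the same direction in both states and lie along the line, whereas red points (67) and blue points (11) mark a called difference between the states, also where both folds are called.

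Whether a fold differed between the states was tested gene by gene, as the fasted fold minus the fed fold over the root of their summed squared standard errors. Both folds are shrunken, and not equally: their standard errors have a ceiling of 0.359 in fasted and 0.288 in fed heads. How far the unlike shrinkage entered the differences was not tested. Of 8557 genes whose base mean reached 10 in both states, 78 passed (0.912%), with 67 differences positive (0.783%) and 11 negative (0.129%). At an unadjusted p under 0.05 there were 334. The 67 positive differences came from 36 genes called higher in fasted CRTCko heads and not called in fed heads, 17 called lower in fed heads alone, 5 called higher in both, 5 called in opposite directions and 4 called in neither. The 11 negative differences came from 8 genes called lower in fasted heads alone, 1 called lower in both states and 2 called higher in fed heads alone. Of 283 fasted calls that were not called in fed heads, 273 entered this test and 44 passed it. For the rest a difference between fasted and fed heads was not shown. With a t distribution of 6 degrees of freedom in place of the normal, 0 differences passed. No value per library exists with which to take the third fed set out of the difference, and its part was not tested.

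The widest positive difference was that of FBgn0010381, an identifier without a symbol in the tables used, at 3.37 ± 0.35 (adjusted p = 4.34e-18). It was higher in fasted CRTCko heads by 2.32 and lower in fed ones by -1.05 in the authors' deposited tables. Next came CG10962 at 3.21 ± 0.39, Cyp4e3 at 3.17 ± 0.30, CG43402 at 2.88 ± 0.40 and Lsd-1 at 2.86 ± 0.36 in the difference. The satiety peptide gene fit differed by 2.37 ± 0.43, CCHa2 by 2.26 ± 0.29, the Bomanin gene BomBc1 by 2.20 ± 0.43, the lipid droplet gene Jabba by 2.13 ± 0.31 and BomT2 by 2.09 ± 0.33. On the negative side stood Pfas at -2.59 ± 0.26 (adjusted p = 1.35e-19), Lst at -1.94 ± 0.32, CG42876 at -1.83 ± 0.43, Obp56a at -1.66 ± 0.44, ImpL2 at -1.64 ± 0.29, TotC at -1.42 ± 0.39, Sardh at -1.40 ± 0.35, Adsl at -1.38 ± 0.30, CG11425 at -1.32 ± 0.36 and Usp8 at -1.29 ± 0.25. For CG42876, nearly without reads in the knockout libraries of both states, both folds are shrunken values against an almost empty group, so its difference cannot be read as a change of the contrast between states. The negative side thus held 3 enzymes of purine and sarcosine metabolism along with ImpL2 and Lst, secreted proteins that restrain insulin signalling. The 5 genes called in opposite directions were FBgn0010381, fit, BomT2, CG31689 and CG34134, each higher in fasted and lower in fed CRTCko heads in the authors' deposited tables.

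In the folate cycle and glycine cleavage 4 enzymes were called lower in fasted CRTCko heads and CG8665 was called higher, of 10 tested members. Of all tested genes 1.97% were called lower and 3.43% higher. Of the 10 folds 6 lay below 0, with a median of -0.33 beside -0.02 for all tested genes in the authors' deposited table. CG3999, the glycine decarboxylase of the cleavage system, stood at -1.33 ± 0.29 and Nmdmc, the mitochondrial methylenetetrahydrofolate dehydrogenase, at -0.95 ± 0.22 in the authors' deposited table. Lower as well in the authors' deposited table were pug, the cytosolic trifunctional folate enzyme, at -0.92 ± 0.19 (adjusted p = 0.000107) and Shmt, which moves the carbon of serine to folate, at -0.81 ± 0.22 (adjusted p = 0.00525). Exons of Nmdmc, pug and Shmt overlap those of Mst85C, CG14683 and CG12236, and reads in the overlaps may count for either gene. Uncalled members included ppl at 0.62, Mthfs at 0.44, CG6415 at 0.29 and CG7560 at -0.48 in the authors' deposited table. The implied levels of these 10 genes summed to 5049 normalised counts in CRTCko and 6521 in wt, from the authors' deposited table. In fed heads Nmdmc was the member called lower, at -1.56, and CG8665 the one called higher in the authors' deposited table. Only CG8665 passed the test of the difference, at 1.33 ± 0.34 (adjusted p = 0.0131). It was called higher in both states, and the part of the unlike shrinkage in this difference was not tested.

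In the methionine cycle and the sarcosine branch, 2 of 11 tested members were called lower and 1 higher (median fold -0.33). That is 27.3% called, beside 5.39% of all tested genes. Gnmt, which makes sarcosine from glycine with the methyl group of S-adenosylmethionine, stood at -1.48 ± 0.20 in the authors' deposited table (adjusted p = 2.13e-11). Sardh, which breaks sarcosine down again and returns its carbon to folate, stood at -1.73 ± 0.22 in the authors' deposited table (adjusted p = 2.78e-12). The enzymes on either side of sarcosine were thus both lower. CG10621, annotated as a homocysteine S-methyltransferase, was higher by 1.42 ± 0.21 in the authors' deposited table (adjusted p = 1.3e-09). Sam-S, which makes S-adenosylmethionine, was at -0.47 ± 0.20 and Ahcy, which clears its product, at -0.42 ± 0.25 in the authors' deposited table, without a call for either. None of the 11 was called in fed heads in the authors' deposited table, where 4.75% of all tested genes were, and Sardh alone passed the test of the difference. Among 4 tested genes of serine synthesis, the serine racemase gene Srr was called higher, at 0.74 ± 0.22 in the authors' deposited table (adjusted p = 0.0165). Srr shares exons with FER, and aay, CG6287 and CG11899 of the phosphoserine route were not called, at 0.50, -0.26 and -0.47 in the authors' deposited table.

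The pathway that builds purines on folate carbons had 3 of 9 tested members called lower and 1 higher. Of all tested genes 1.97% were called lower and 3.43% higher. Pfas, the formylglycinamide ribotide amidotransferase, fell most. Adsl, adenylosuccinate lyase, stood at -1.70 ± 0.22 (adjusted p = 7.72e-13) and Paics at -0.58 ± 0.18 (adjusted p = 0.0282) in the authors' deposited table. Prat2, which carries out the first committed step, was higher by 0.78 ± 0.21 in the authors' deposited table (adjusted p = 0.00632). Gart was at -0.10 ± 0.19, CG11089 at -0.32 ± 0.20 and Prat, the other amidotransferase gene, at 0.16 ± 0.34 in the authors' deposited table, none called. The pathway's genes therefore did not move together: the first enzyme was above wt and Pfas far below it. Summed implied levels of the 9 genes were 14713 normalised counts in CRTCko and 20442 in wt, from the authors' deposited table. None of the 9 was called in fed heads in the authors' deposited table, where 4.75% of all tested genes were. Pfas and Adsl passed the test of the difference, as did 0.912% of all genes in it. Exons of Pfas overlap those of CG31643.

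**Figure D3:**
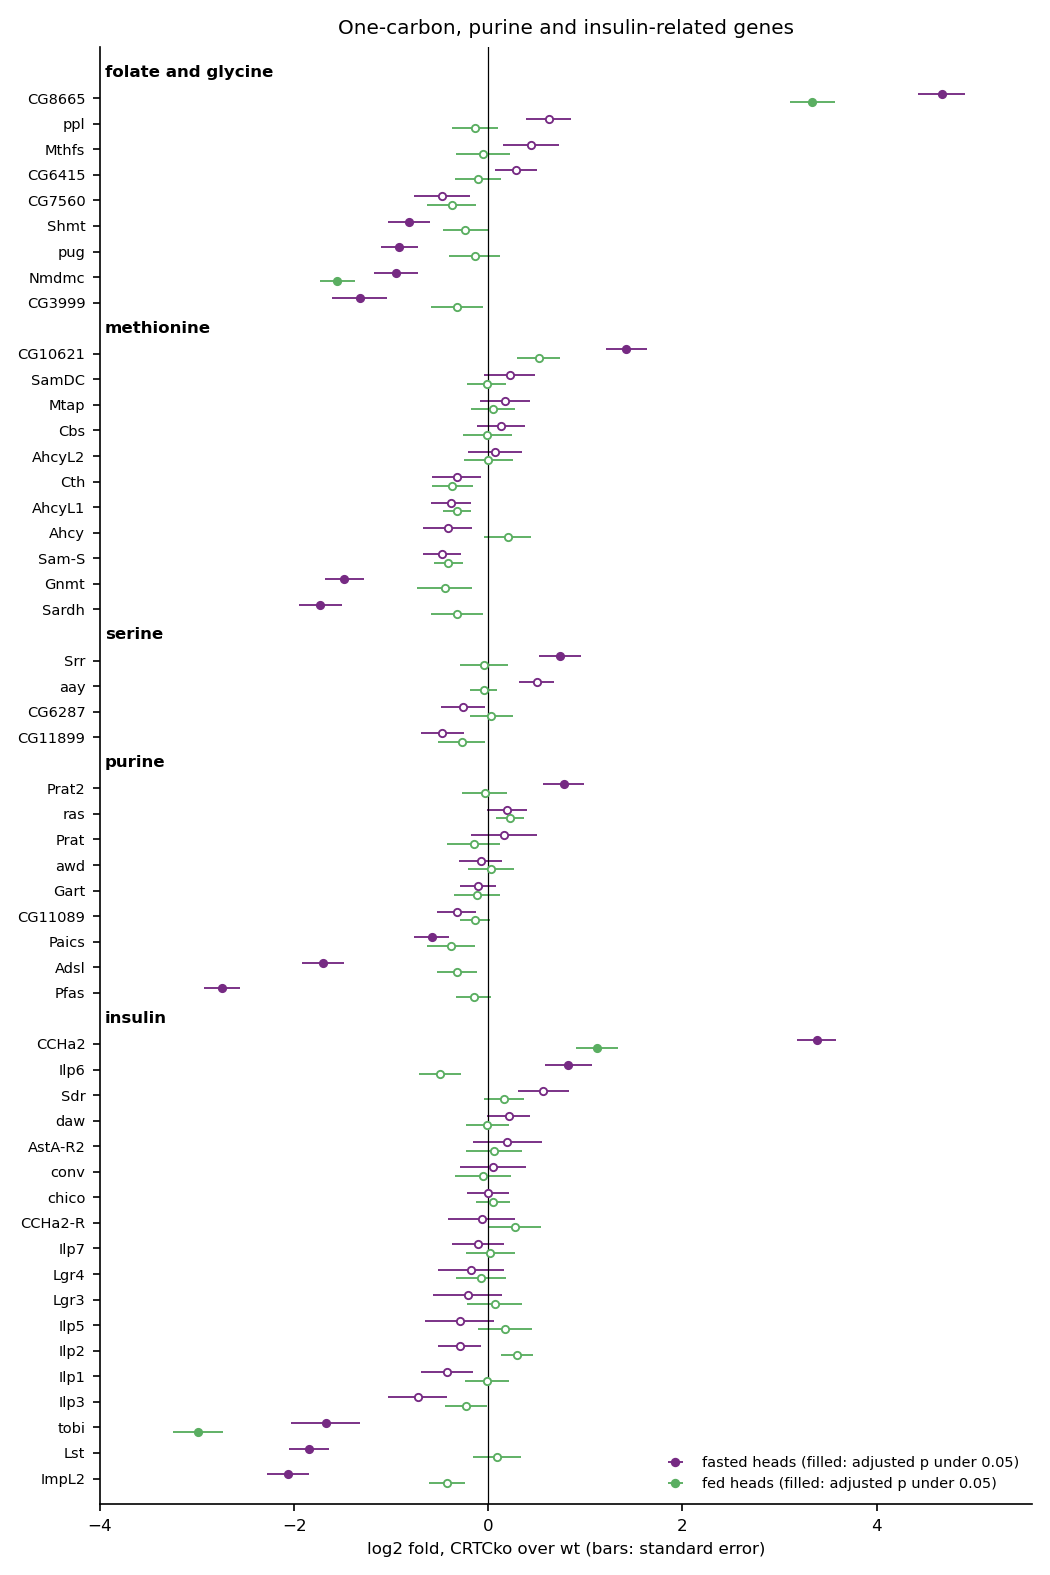
Points are log2 folds, CRTCko over wt, with standard errors as bars, for genes of the folate, methionine, serine, purine and insulin lists from the authors' deposited tables. Purple marks fasted and green fed heads, and filled points are called, so that Pfas at -2.74 and Lst at -1.84 are filled in purple alone while CG8665 is filled in both colours.

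Genes of insulin signalling outside the cell changed in both directions. Of 18 tested insulin-like peptides and modulators, 2 were called higher and 3 lower (27.8%, beside 5.39% of all tested genes), with a median fold of -0.14. ImpL2 (chromosome 3L, 4224006 to 4236147), a secreted protein that binds insulin-like peptides, was lower at -2.06 ± 0.22, with implied levels of 229 normalised counts in CRTCko and 958 in wt in the authors' deposited table (adjusted p = 5.74e-19). Lst (chromosome 2R, 16574579 to 16576586), limostatin, a hormone that suppresses insulin secretion, was lower at -1.84 ± 0.21, with implied levels of 256 in CRTCko and 921 in wt in the authors' deposited table (adjusted p = 2.11e-16). Higher were CCHa2, with implied levels of 2654 in CRTCko and 255 in wt, and the fat body insulin-like peptide gene Ilp6 at 0.83 ± 0.24 in the authors' deposited table (adjusted p = 0.0155). The glucosidase gene tobi, a target of the insulin-producing cells, was at -1.67 ± 0.36 in fasted and -2.99 in fed heads, both called in the authors' deposited tables. ImpL2 and Lst, which restrain insulin signalling, were thus lower and CCHa2, which stimulates it, was higher in fasted CRTCko heads. The peptides of the insulin-producing cells themselves were not called, with Ilp2 at -0.30 ± 0.22, Ilp3 at -0.73 ± 0.31 and Ilp5 at -0.29 ± 0.36 in the authors' deposited table. In fed heads ImpL2 was at -0.42 and Lst at 0.09, not called in the authors' deposited table. The differences were called for CCHa2, Ilp6 (1.32 ± 0.32), ImpL2 and Lst.

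Regulators inside the cell showed fewer calls. The list of FOXO and TOR nutrient-sensing genes had 0 of 23 tested members called in the authors' deposited table (DESeq2), and 0 at an unadjusted p under 0.05, with folds of 0.06 ± 0.21 for foxo and 0.20 ± 0.19 for Thor, the translation inhibitor that FOXO activates. In fed heads Thor was called lower, at -0.67 in the authors' deposited table, and its difference of 0.87 ± 0.25 passed (adjusted p = 0.048). Of 21 genes of the Crtc, CREB and cyclic AMP pathway Crtc was the one called (4.76%, beside 5.39% of all tested genes). CrebB, the fly's CREB, was at -0.08 ± 0.21, the coactivator gene nej at -0.13 ± 0.22, and the kinase genes Sik2 and Sik3 at -0.05 ± 0.21 and -0.17 ± 0.21 in the authors' deposited table. The neuronal activity-regulated list had CG14186 lower, at -1.61 ± 0.19, and kay, the fly's Fos, higher, at 0.58 ± 0.19, among 9 tested members in the authors' deposited table. They were 22.2% of the tested members, beside 5.39% of all tested genes, and both were called in the same direction in fed heads.

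Genes of lipid storage stood out by single members. Besides Lsd-1, AkhR, the receptor of the fly's glucagon-like adipokinetic hormone, was higher by 1.27 ± 0.23 (adjusted p = 1.41e-06) and the lipase gene Lip4 was lower at -0.72 ± 0.23 in the authors' deposited table. These were the 3 called of 11 tested lipase and lipid droplet genes (27.3%, beside 5.39% of all tested genes). Lsd-1 had implied levels of 1642 normalised counts in CRTCko and 238 in wt, and AkhR had 388 in CRTCko and 161 in wt, from the authors' deposited table. Jabba, a droplet protein found through the difference test, was higher by 2.19 ± 0.19 in the authors' deposited table (adjusted p = 5.86e-27). Its exons overlap those of Cyp12b2. Lsd-1, AkhR and Jabba were each near 0 in fed heads, at -0.07, -0.02 and 0.06 in the authors' deposited table, and each passed the test of the difference. The brummer lipase gene bmm, chosen after its values were seen, was at -0.43 and not called in the authors' deposited table. Of 20 fatty acid oxidation genes, the thiolase gene yip2 at 0.92 ± 0.19 and Mtpalpha at 0.57 ± 0.19 were higher and 0 lower in the authors' deposited table, 10.0% called beside 5.39% of all. Among 13 genes of lipid synthesis Desat1, the stearoyl-CoA desaturase, was lower at -1.44 ± 0.19 (adjusted p = 1.46e-11), with implied levels of 6034 normalised counts in CRTCko and 16338 in wt in the authors' deposited table. ACC, acetyl-CoA carboxylase, was lower at -0.71 ± 0.19, and Men, the malic enzyme that makes NADPH, was higher at 1.67 ± 0.18 in the authors' deposited table (adjusted p = 2.18e-17). Desat1 and Men passed the test of the difference, at -0.99 ± 0.26 and 1.06 ± 0.28.

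Sugar metabolism was read as enzymes that digest starch and enzymes that handle sugar within the body. Of 8 tested amylases and maltases 4 were called lower and 0 higher, where 1.97% of all tested genes were called lower. Amy-p was lower at -2.55 ± 0.23 (adjusted p = 4.59e-25), Amy-d at -2.16 ± 0.22 (adjusted p = 8.98e-21) and the maltase gene Mal-B2 at -1.13 ± 0.18 (adjusted p = 5.88e-08), beside tobi, in the authors' deposited table. Amy-p and Amy-d are near-identical neighbours on chromosome 2R, and their reads may have been shared. In fed heads 5 of 8 were called lower in the authors' deposited table, and 0 of 6 differences passed (0.912% of all did). Amy-p, Amy-d, Mal-B2 and tobi were thus lower in both states. The uncalled members ran from -0.75 for Mal-B1 to 0.42 for Mal-A6, with Mal-A5 at 0.40 ± 0.21, in the authors' deposited table. Trehalose, glycogen and glycolysis genes had 3 of 21 called higher and 0 lower (14.3%, beside 5.39% of all tested genes). Gbs-70E, a glycogen-targeting subunit of protein phosphatase 1, was at 1.94 ± 0.23 in the authors' deposited table (adjusted p = 2.5e-15). The trehalose transporter gene Tret1-1 was at 0.62 ± 0.19 and Gapdh1 at 0.59 ± 0.18 in the authors' deposited table. Gbs-70E was at 0.09 in fed heads in the authors' deposited table, a difference of 1.85 ± 0.29. Of 4 tested gluconeogenesis genes Pepck2 was the one called, higher in both states, with a difference of 1.14 ± 0.32 (adjusted p = 0.0429). For Pepck2 too, the part of the unlike shrinkage was not tested.

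For amino acids, 3 of 18 catabolic genes were called (16.7%, beside 5.39% of all tested genes): Tat, tyrosine aminotransferase, higher at 0.76 ± 0.20, and Oat, ornithine aminotransferase, and Argl, argininosuccinate lyase, lower at -1.35 ± 0.27 and -0.77 ± 0.21 in the authors' deposited table. Exons of Tat overlap CG13404 and those of Argl overlap CG9515 and Tsp29Fb. Of 20 amino acid transporters, JhI-21 was lower at -2.33 ± 0.22 (adjusted p = 4.41e-24), with exons overlapping PLCXD, and CG5535 was lower at -1.46 ± 0.33 in the authors' deposited table. These were the 2 called of the 20, 10.0%. The tRNA synthetase genes LysRS at -1.57 ± 0.21 (adjusted p = 8.44e-12) and IleRS at -0.71 ± 0.23 were lower among 17 tested (11.8% called) in the authors' deposited table. JhI-21, CG5535 and LysRS were called lower in fed heads too, at -2.48, -1.09 and -1.24 in the authors' deposited table.

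Among the immune peptide lists, whose genes were matched by symbol, the Bomanin list held the most called differences between states. Bomanins are short secreted peptides induced by the Toll pathway, and the list also holds Dso1, Dso2 and Bbd, which are not Bomanins. Of its 15 tested members 4 were called lower and 1 higher in fasted CRTCko heads, with a median fold of -0.37 in the authors' deposited table. In fed heads 14 of 15 were called lower and 0 higher, with a median of -1.38 in the authors' deposited table. The difference was positive and called for 7 of the 15, Dso2 among them, beside 0.783% of all genes. BomBc3 stood at -1.10 ± 0.24, BomS5 at -0.93 ± 0.20, Bbd at -0.89 ± 0.18 and BomS4 at -0.85 ± 0.23 in fasted heads in the authors' deposited table, all called. BomT2, at 0.71 ± 0.21 (adjusted p = 0.0208) in fasted heads, was at -1.39 in fed heads in the authors' deposited tables. Several of these genes are close copies that lie together on chromosome 2R, so reads may be shared, and BomS4 overlaps BomBc2. Of 13 antimicrobial peptide genes 1 was called higher and 2 lower (23.1%, beside 5.39% of all tested genes). Def, the fly defensin, was higher at 2.12 ± 0.33, and Drsl4 and CecA2 were lower at -2.27 ± 0.30 and -1.06 ± 0.33 in the authors' deposited table. Of 23 recognition and regulator genes (13.0% called), PGRP-SD at -1.80 ± 0.28 and PGRP-LB at -1.39 ± 0.32 were lower and GNBP3 at 0.72 ± 0.23 higher in the authors' deposited table. Among the matched genes of these lists no difference between fasted and fed heads passed. The counts were 0 of 11 antimicrobial peptide genes and 0 of 23 recognition and regulator genes. Of 21 antimicrobial peptide genes written, 20 were matched, and the unmatched gene was not read. FBgn0010381, with the widest positive difference but no symbol, could be matched to no list. The Turandot stress peptide genes went both ways, with TotX at 1.13 ± 0.32 and TotC at -1.23 ± 0.30 in the authors' deposited table. TotM was at -0.55 ± 0.28 and not called in fasted heads, and was called lower in fed heads at -2.48, in the authors' deposited tables. Of the 4 tested Turandot genes TotM and TotC passed the test of the difference, TotM at 1.93 ± 0.40 (adjusted p = 0.00035).

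Of 19 heat shock genes 3 were called (15.8%, beside 5.39% of all tested genes). Among these Hsp68 was higher at 1.01 ± 0.23 and Hsp83 at 0.61 ± 0.18, with Hsp67Bc lower at -1.39 ± 0.26, in the authors' deposited table. Hsp68 passed the test of the difference, at 1.20 ± 0.32. The list of ATF4 and unfolded protein response genes had 0 of 15 called in the authors' deposited table (DESeq2), and 0 at an unadjusted p under 0.05. The peroxiredoxin gene Prx6b at 2.09 ± 0.34 and Cat, catalase, at 0.66 ± 0.19 were higher among 14 antioxidant genes (14.3% called) in the authors' deposited table.

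Among genes of the eye the opsin genes Rh6, Rh3 and Rh5 were called higher in both states. Of 7 tested rhodopsins 3 were called higher and 0 lower, where 3.43% of all tested genes were called higher and 1.97% lower. All 7 folds were above 0 (median 0.56) in the authors' deposited table. Rh6 had implied levels of 5372 normalised counts in CRTCko and 458 in wt, whereas Rh3 and Rh5 were higher by 0.72 ± 0.20 and 0.62 ± 0.19 in the authors' deposited table. In fed heads 4 of 7 were called higher, beside 2.27% of all tested genes, with Rh6 at 3.85 in the authors' deposited table. Of the 7 differences 0 passed, where 0.912% of all did. The main opsin gene ninaE was not called in fasted heads, at 0.20, and called higher in fed heads, at 0.60, in the authors' deposited tables. Of 25 other phototransduction genes the arrestin gene Arr2 was higher at 0.78 ± 0.18, while ninaG at -1.21 ± 0.22, ninaB at -0.79 ± 0.21 and the channel gene trpl at -0.59 ± 0.18 were lower in the authors' deposited table. In fed heads Arr2 was called higher at 1.06 and ninaG lower at -0.84, whereas ninaB at -0.32 and trpl at 0.13 were not called, in the authors' deposited table. Of the 25 genes 16.0% were called in fasted heads, beside 5.39% of all tested genes. Of their 25 differences 0 passed, where 0.912% of all did. Exons of ninaB overlap those of Adgf-D. Of 18 eye pigment genes w was the one called (5.56%, beside 5.39% of all tested genes). Of 14 tested clock genes 2 were called higher and 1 lower (21.4%, beside 5.39% of all tested genes). These were tim at 0.97 ± 0.19, Clk at 0.92 ± 0.27 and per at -0.72 ± 0.22 in the authors' deposited table. In fed heads tim was called higher at 1.69, while Clk at 0.25 and per at 0.30 were not called, in the authors' deposited table. The time of day at collection is not given in the labels.

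Markers of head tissues moved with the comparison. Of 20 tested muscle markers 13 were called higher and 1 lower, where 3.43% of all tested genes were called higher and 1.97% lower, with a median fold of 0.66 in the authors' deposited table. Act88F, an actin of flight muscle, was higher at 1.47 ± 0.36, the giant sarcomere protein genes sls and bt at 0.89 ± 0.21 and 0.81 ± 0.21, and the troponin C gene TpnC41C was lower at -1.27 ± 0.34 in the authors' deposited table. Implied levels of the 20 genes summed to 35777 normalised counts in CRTCko and 23612 in wt, from the authors' deposited table. In fed heads 3 of 21 muscle markers were called higher and 1 lower (median 0.18) in the authors' deposited table, and 1 of 19 differences passed, that of Mlc2 at 0.95 ± 0.25. In such bulk samples a change in the number of cells of a type and a change in RNA per cell cannot be told apart.

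Fat body markers had 5 of 14 called higher and 1 lower (42.9%, beside 5.39% of all tested genes), with a median fold of 0.34. Besides Lsd-1 and AkhR these were the larval storage protein genes Lsp1beta at 1.93 ± 0.20 and Lsp2 at 1.79 ± 0.32 and the lipophorin gene apolpp at 0.78 ± 0.22, with Gnmt, which is also on the list of the sarcosine branch, lower, in the authors' deposited table. The other larval storage protein genes lay below 0 without a call, the scarce Lsp1gamma at -0.95 ± 0.32 and Lsp1alpha at -0.48, as did NimB4 at -0.73, in the authors' deposited table. In fed heads Lsp1gamma was called lower, at -1.24 in the authors' deposited table. Implied levels of the 14 genes summed to 21828 normalised counts in CRTCko and 14657 in wt, from the authors' deposited table. Higher summed levels of both marker lists thus went with the fasted CRTCko heads, with single markers in either direction, and their part in the folds of the metabolic genes above was not tested. Neuronal markers had 0 of 19 called in the authors' deposited table (DESeq2), 1 at an unadjusted p under 0.05, and a median fold of -0.09. Glial markers had 2 of 17 called higher and 0 lower (11.8%), vkg at 0.90 ± 0.26 and Tret1-1, in the authors' deposited table. In fed heads 4 glial markers were called lower and 0 higher, and the astrocyte gene alrm alone passed the test of the difference, at 1.51 ± 0.30. Hemocyte markers had 3 of 11 called higher and 0 lower (27.3%). These were the prophenoloxidase gene PPO2 at 1.36 ± 0.27 and the collagen IV genes Col4a1 at 1.00 ± 0.25 and vkg, in the authors' deposited table. The uncalled ones ran from -0.21 for srp to 0.62 for NimC1, with Hml at 0.09 and Pxn at -0.19, in the authors' deposited table. The gene vkg is on both the glial and the hemocyte list. No male gland or testis marker had an adjusted p among 16 matched, and 2 ovary markers that had one were not called.

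**Figure D4:**
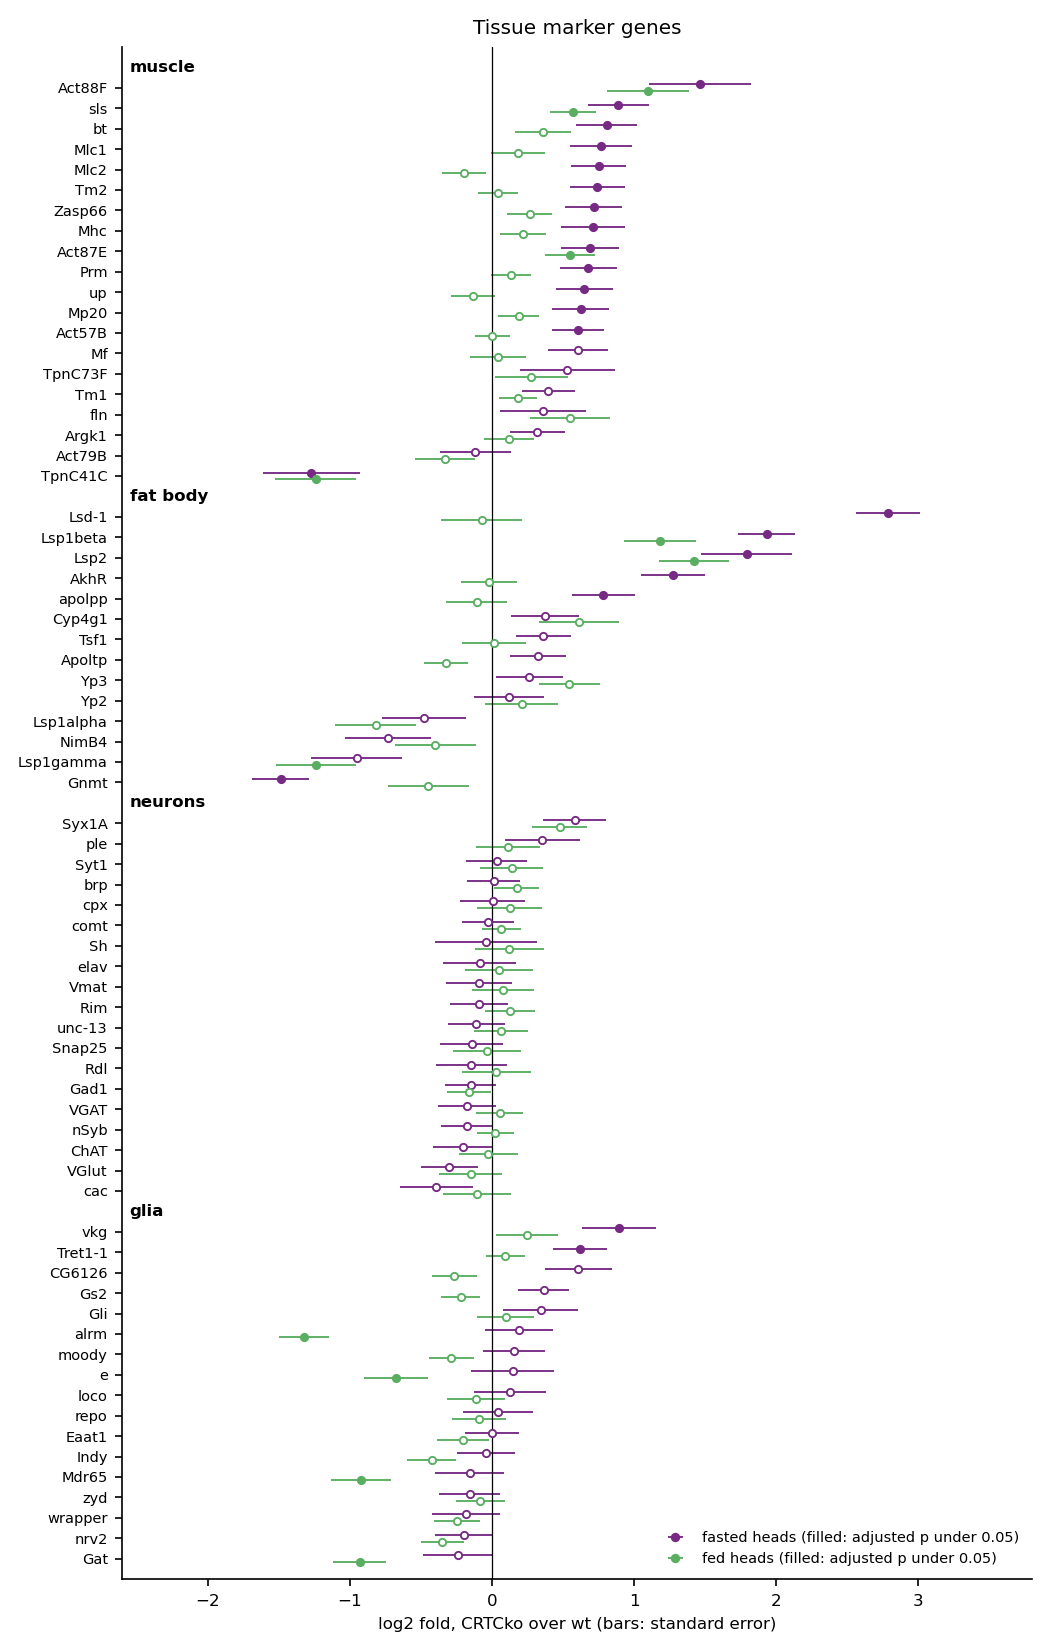
Points are log2 folds, CRTCko over wt, with standard errors as bars, for tested markers of muscle, fat body, neurons and glia in fasted (purple) and fed (green) heads from the authors' deposited tables, filled where called. In fasted heads 18 of 20 muscle markers sit to the right of 0, with a median of 0.66, while neuronal markers lie around 0 with a median of -0.09.

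Set side by side, the gene lists differed in how many members were called. Muscle markers (14 of 20), amylases and maltases (4 of 8), the folate cycle (5 of 10) and purine synthesis (4 of 9) led among lists with at least 5 tested members, beside 5.39% of all tested genes. Lists of the basic machinery of the cell were at the other end. Cytosolic ribosomal proteins had 0 of 75 called, mitochondrial ribosomal proteins 0 of 70, oxidative phosphorylation subunits 0 of 68 and proteasome subunits 0 of 31 in the authors' deposited table (DESeq2). At an unadjusted p under 0.05 these lists had 0, 3, 1 and 0 members. All 31 proteasome folds lay above 0, with a median of 0.19, but no single one passed.

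**Figure D5:**
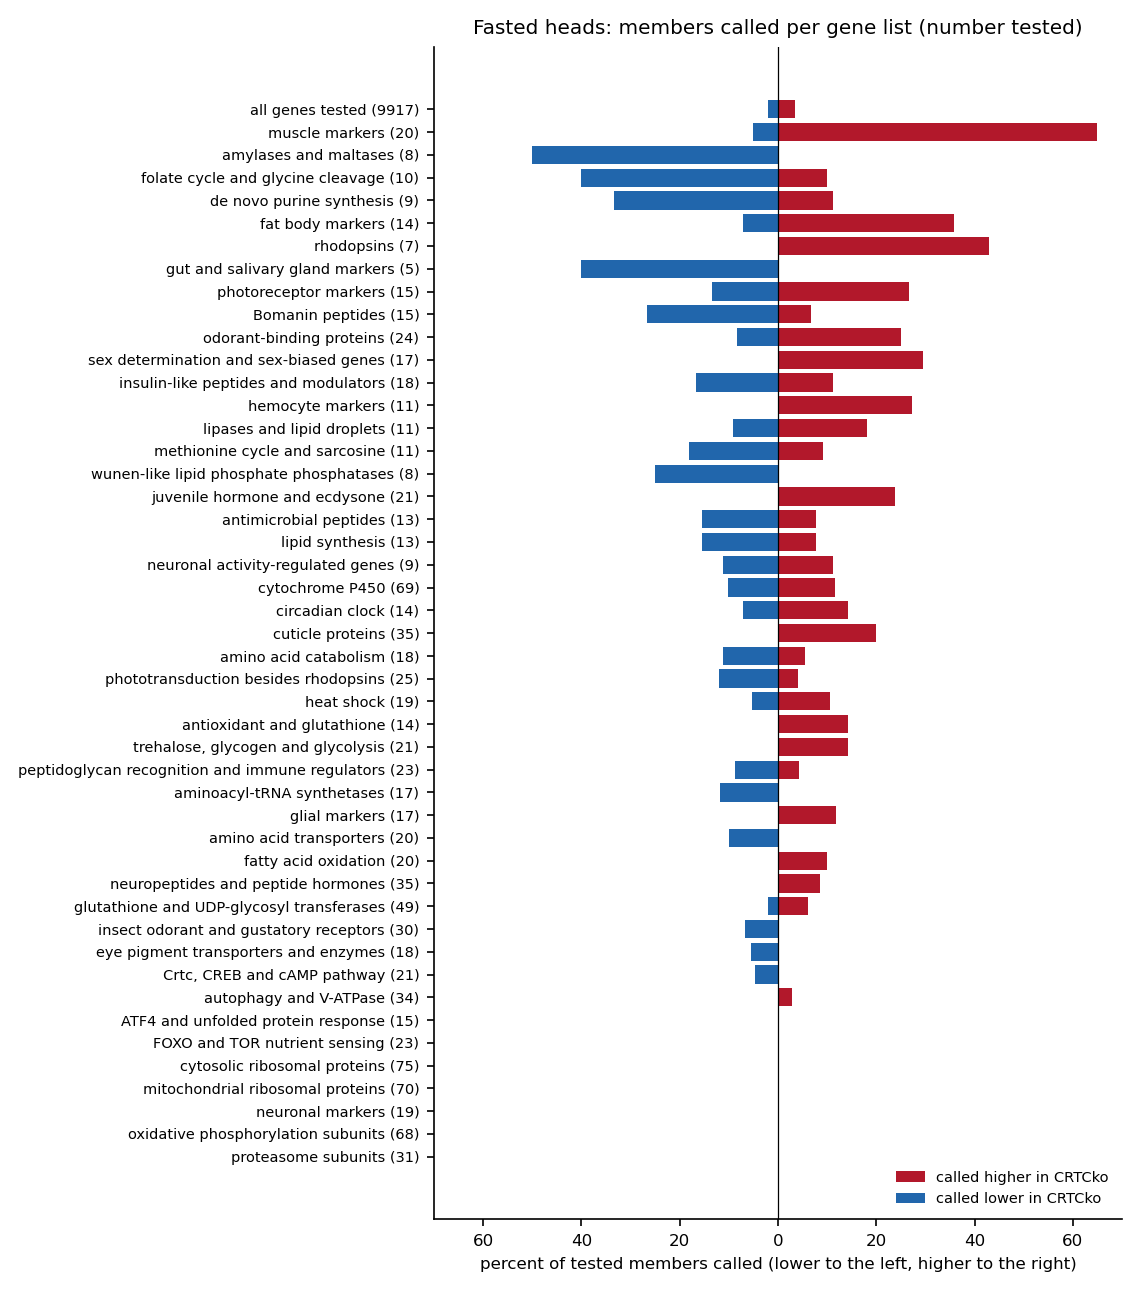
Bars give the percent of tested members called lower (blue, to the left) and higher (red, to the right) in fasted CRTCko heads for each gene list with at least 5 tested members, with the number tested in parentheses and all 9917 tested genes as the top bar. Muscle markers reach furthest to the right (13 of 20) and amylases and maltases furthest to the left (4 of 8).

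Called genes lay on all chromosome arms. On 2L, 6.60% of the tested genes were called, on 2R 5.69%, on 3L 5.77%, on 3R 5.57%, on X 3.37% and on chromosome 4 2.15%, in the authors' deposited table. Around Crtc on 3L, 1 of 17 tested genes within 100000 bases was called, the adenosine deaminase-related gene Adgf-A at 0.98 ± 0.30 in the authors' deposited table. Within 500000 bases 7 of 82 were called (8.54%), within 1000000 bases 8 of 143 (5.59%) and within 2000000 bases 25 of 340 (7.35%), Crtc itself left out. Of the 7 within 500000 bases 5 were lower, 6.10% of the 82 genes, where 2.38% of all tested genes on 3L were called lower.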

How the data were processed

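Per the labels' protocols, polyadenylated RNA of adult fly heads was made into libraries with NEBNext Ultra reagents. Per the submitters' processing notes TopHat2, STAR, Cuffdiff and DESeq2 and the builds dm3 and dm6 were used, with no versions or roles, so the aligner, build and strand setting behind the tables are not given in the sources used here. Each of 4 deposited tables lists, per the file headers, a base mean (a signal averaged over the comparison's libraries by the authors), a log2 fold change by the authors with its standard error, a Wald score deposited beside it, and the authors' p-values and adjusted p-values. The score equals the fold over its error within 2.18e-07. The standard errors have a ceiling of 0.359 (fasted) and 0.288 (fed) in the authors' deposited tables, the form that a normal prior on the folds gives, so the deposited folds are shrunken. No value per library is given, so depth per library is unknown and no interval beyond the authors' standard errors was made. The base means of the fasted table sum to 4405830 normalised counts.

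Symbols from an Ensembl name table matched 17253 identifiers and 306 had none. Positions come from the Ensembl release 115 annotation of the fly and are 1-based. The difference between states had a two-sided normal p with Benjamini-Hochberg adjustment over the genes tested. It was also run on simulated folds, drawn with a normal spread set by the same standard errors. That simulation cannot show how the test fares where those errors are too small or the shrinkage is unlike. An implied level is 2 times the base mean, split by the fold. Alternatives were other thresholds, filters on the base mean, folds with the prior taken out, rescaled scores and t distributions. Python 3.11.15, pandas 2.3.3, numpy 2.4.6, scipy 1.17.1 and matplotlib 3.10.9 were used. Genes were named by rule: Crtc and w, the 15 largest folds in each direction among called genes whose base mean reached 10, up to 4 called members of each of 52 lists, the 10 largest differences in each direction, called genes within 100000 bases of Crtc, genes called in opposite directions, and members of the one-carbon, insulin and cyclic AMP lists. The comparison and the lists were chosen with earlier results of these data known. The other 11 samples were not analysed here, and 1 uncalled gene of the folate list is not reported here.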

Additional observations from a re-analysis of the deposited data

Results flagged for a closer look

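For 20 genes named above, the knockout contrast differed between fasted and fed heads by the test of the difference itself, which is why they are listed. The differences, as the fasted fold minus the fed fold on the log2 scale, were positive for FBgn0010381 (3.37), CG10962 (3.21), Cyp4e3 (3.17), CG43402 (2.88), Lsd-1 (2.86), fit (2.37), CCHa2 (2.26), BomBc1 (2.20), Jabba (2.13) and BomT2 (2.09). They were negative for Pfas (-2.59), Lst (-1.94), CG42876 (-1.83), Obp56a (-1.66), ImpL2 (-1.64), TotC (-1.42), Sardh (-1.40), Adsl (-1.38), CG11425 (-1.32) and Usp8 (-1.29).

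These genes reached the difference in unlike ways. BomBc1 was at -0.67 ± 0.36 in fasted and -2.87 ± 0.24 in fed heads in the authors' deposited tables, called in fed heads only, with adjusted p = 0.000107 for the difference. Obp56a was at -0.09 ± 0.36 in fasted and 1.57 ± 0.26 in fed heads, and the deubiquitinase gene Usp8 at -0.58 ± 0.20 and 0.72 ± 0.14, in the authors' deposited tables. CG42876 was called lower in both states, at -4.36 and -2.53 in the authors' deposited tables. Its base mean was 0.360 over the knockout libraries of both states in the authors' deposited table, so both folds are shrunken values against an almost empty group and their difference cannot be read as a change between states. The fit transcript was scarce, with a base mean of 20.6 normalised counts over the fasted libraries in the authors' deposited table. For FBgn0010381 the base mean was 1207 in the same authors' deposited table.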

How the results depend on the processing

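The 535 fasted calls became 366 at an adjusted p under 0.01, 501 with no filter on low counts, 540 and 471 at base means of at least 10 and 50, and 654 with scores divided by their central spread of 0.922. With a minimum absolute log2 fold of 1 there were 286, and 363 with the prior taken out first. Taking the prior out multiplies each fold by a positive factor, so no sign could change. Over the 535 called genes the median ratio to the deposited fold was 1.14. With a t distribution of 2 degrees of freedom in place of the normal, 0 were called and 242 lay at an unadjusted p under 0.05. The smallest adjusted p was then 0.999963, so even the strongest gene failed and that choice cannot tell the calls apart. The 489 fed calls became 336 at 0.01 and 467 where the base mean reached 10. The 78 differences became 51 at an adjusted p under 0.01, 71 at base means of at least 50 and 78 with no filter. The authors' fasting tables gave 68, of which 66 were the same genes in the same direction. They hold the same 10 libraries and yield the same contrast in another order, so this is not a separate check. A t distribution with 6 degrees of freedom gave 0 differences, 188 at an unadjusted p under 0.05 and a smallest adjusted p of 0.217. The 242 calls shared by both states became 174 at 0.01 and also 174 where the base mean reached 50. Of 51 lists with tested members, the count of called members moved by over 1.5 times in 15 at 0.01 and in 3 where the base mean reached 50. No paired analysis was possible because the tables hold no values per library, and for the same reason no library was left out in turn. The share of promoters with a cyclic AMP response element was not run, since no promoter sequence was given.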

Other observations

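Several lists outside metabolism and immunity also held called genes. Of 69 tested cytochrome P450 genes 8 were called higher and 7 lower in fasted CRTCko heads, 21.7% beside 5.39% of all tested genes. After Cyp4e3 the widest were Cyp9f3 at -1.99 ± 0.34, Cyp4p1 at -1.45 ± 0.23 and Cyp6t1 at 1.40 ± 0.29 in the authors' deposited table. Glutathione and UDP-glycosyl transferases had 3 of 49 higher and 1 lower (8.16%), led by Ugt35C1 at 2.18 ± 0.25 and GstE3 at 1.22 ± 0.23 in the authors' deposited table. Cyp4e3 and GstE3 passed the test of the difference, GstE3 at 1.45 ± 0.32.

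Of 21 tested juvenile hormone and ecdysone genes 5 were called higher in fasted CRTCko heads and 0 lower (23.8%, beside 5.39% of all tested genes), with a list median of 0.01: the epoxide hydrolase genes Jheh3 at 1.24 ± 0.26, Jheh1 at 1.05 ± 0.20 and Jheh2 at 0.72 ± 0.20, the esterase gene Jhe at 1.08 ± 0.36 and the binding protein gene Jhbp1 at 0.99 ± 0.23 in the authors' deposited table. Jheh2 lies outside the naming rule and completes the count. Also of the genes that clear or bind the hormone, Jhedup at -0.35 and to (takeout) at -0.43 were not called in the authors' deposited table. In fed heads Jheh3 was called higher, at 0.79 in the authors' deposited table. Of 17 genes of sex determination and sex-biased expression 5 were called higher and 0 lower (29.4%), with a list median of 0.09. Among these 5 were fit at 1.57 ± 0.36, sxe2 at 1.32 ± 0.21 and dsx at 1.08 ± 0.24 in the authors' deposited table. Exons of dsx overlap those of lds. The yolk protein genes Yp1 and Yp2 had base means of 2.31 and 2.78, and Yp3, at 0.26, was not called, in the authors' deposited table. The labels give no sex.

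Cuticle protein genes had 7 of 35 called higher and 0 lower (20.0%, beside 5.39% of all tested genes), with Cpr11B at 2.11 ± 0.34 and Cpr49Ae at 1.27 ± 0.26 in the authors' deposited table. Odorant-binding protein genes had 6 of 24 higher and 2 lower (33.3%), with Obp57a at 2.48 ± 0.34 and Obp56e at 1.72 ± 0.33 opposite Obp46a in the authors' deposited table. The ionotropic receptor genes Ir75a and Ir75b were lower in both states, at -2.07 ± 0.36 and -1.90 ± 0.36 in fasted heads in the authors' deposited table. Among 35 neuropeptide and peptide hormone genes CCHa2, Nplp3 at 2.00 ± 0.19 and Nplp4 at 1.48 ± 0.36 were higher and 0 lower, a called share of 8.57% that lies near that of all tested genes, with a median fold of -0.21 over the list in the authors' deposited table.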
